A study of Mus musculus with 12 samples.

Results

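The genes described here encode proteins that the liver secretes into plasma, with 3 hepatocyte genes beside them whose products stay in the cell (Hnf4a, Cps1 and Tat). The set named 33 genes, which were found through the gene symbols of the platform's probe annotation, with the brightest probe of each gene (the highest mean over 12 arrays) standing for it. A probe was listed for 32 of the 33 genes, and none for Gc, the vitamin D carrier. The 32 genes had 50 probes, 13 of them more than 1, among 19056 genes with a probe on the array. Expression was measured in whole hearts of E15.5 mouse embryos, each hybridized to an Illumina WG-6 array of its own, in 1 KO, 4 PatKO, 4 MatKO and 3 WT hearts.

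All mutant embryos carried the gene trap allele of Ddc that removes the heart transcript Ddc_exon1a, on a mixed strain background. The KO embryo carried the deletion on both alleles, a genotype that is lethal before birth, and it was a single heart. PatKO embryos had received the deletion on the paternal allele, from which heart transcribes Ddc_exon1a, and MatKO embryos on the maternal allele. WT embryos carried no deletion. The allele is not limited to the heart, so other tissues of the embryo carry it as well. In the combined comparison, the ablated hearts are the KO heart and the 4 PatKO hearts, and the control hearts are the 4 MatKO and 3 WT hearts.

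The liver makes most proteins of plasma, among them carriers, the fibrinogen chains, clotting factors, protease inhibitors and the apolipoproteins that coat lipid particles. In the mouse embryo the hepatocytes of the fetal liver begin to secrete them before birth, and the yolk sac endoderm shares part of the set, above all Afp, Ttr and apolipoproteins. Transcription factors such as HNF1, HNF4 and the FOXA family bind the promoters of many of these genes, and the fetal liver is at the same time the main site where blood cells form.

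The values are log2 signals that the authors had corrected for background and normalized between arrays, and a difference of 1 is a doubling. As a bound on background, a gene was read as above background in a heart where its signal lay over the 95th percentile of 1504 probes of olfactory and vomeronasal receptor genes in the same heart. That bound lay between 5.52 and 5.75. Ddc followed the labels, with a signal of 9.12 in the KO heart and 10.22 to 10.44 in PatKO hearts, against 13.42 to 13.99 in MatKO and 13.66 to 14.12 in WT hearts (probe ILMN_1260450). All 16 cardiomyocyte markers measured were above background in all 12 hearts, and their mean deviation from each gene's mean stayed within -0.11 to 0.13. Which arrays shared a slide is not stated. Over 16049 probes with a mean of 7 or more, the members and marker lists left out, the main axis of variation held 26.9% of the variance. It was positive (2.17 to 28.3) in the KO heart, PatKO 1 and 2, MatKO 3 and 4 and WT 1, and negative (-25.4 to -6.96) in the other hearts.

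The promoters of several of these genes are shown first, because they carry a short sequence in common. RefSeq (GRCm38.p6) gave a promoter window for 26 of the 32 genes. In the 250 bases before the start site, searched on both strands, the HNF1 half-site GTTAAT was found for 10 of the 26 genes, against 6.43% of 32851 promoters of all genes. The 10 genes were Afp, Alb, Fga, Fgb, Hc, Hnf4a, Serpina1a, Serpina1b, Serpina1d and Vtn. The FOXA core TGTTTAC was found for 4 (Apoa2, Apoh, Fetub and Rbp4; 3.17% of all promoters), the TATA box letters TATAAA for 7 (12.4% of all promoters) and CAAAGTCCA, a form of the HNF4 site, for none (0.384% of all promoters). A match of letters is not a bound site.

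The last 120 bases before the start site are printed for Afp, Alb, Fga and the 3 Serpina1 genes, with the half-site or its reverse complement in capitals. Afp and Alb are neighbours on the chromosome and are shown as a pair whose probes behaved differently, the Serpina1 genes as near copies of each other, and Fga as the fibrinogen chain with the widest range in these hearts.
Afp, chr5:90490594-90490713, plus strand: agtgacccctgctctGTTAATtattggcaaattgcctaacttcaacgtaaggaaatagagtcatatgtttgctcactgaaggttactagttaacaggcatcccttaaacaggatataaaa
Alb, chr5:90460750-90460869, plus strand: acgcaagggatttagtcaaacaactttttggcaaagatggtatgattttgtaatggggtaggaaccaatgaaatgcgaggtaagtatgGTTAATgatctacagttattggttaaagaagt
Fga, chr3:83026033-83026152, plus strand: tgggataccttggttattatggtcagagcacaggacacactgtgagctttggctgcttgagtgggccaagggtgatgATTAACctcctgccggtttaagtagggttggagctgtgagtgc
Serpina1a, chr12:103863620-103863739, minus strand: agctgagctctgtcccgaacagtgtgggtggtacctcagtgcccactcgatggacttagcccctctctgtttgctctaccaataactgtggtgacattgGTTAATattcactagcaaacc
Serpina1b, chr12:103738190-103738309, minus strand: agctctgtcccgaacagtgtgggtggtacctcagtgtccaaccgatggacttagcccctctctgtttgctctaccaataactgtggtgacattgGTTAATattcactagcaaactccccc
Serpina1d, chr12:103773634-103773753, minus strand: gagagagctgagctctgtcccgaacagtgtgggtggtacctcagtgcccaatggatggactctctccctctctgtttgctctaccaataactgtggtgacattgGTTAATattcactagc
The longest unbroken run that Serpina1b and Serpina1a share was 72 bases and that of Serpina1d with either was 55 bases, each with the half-site inside it. Probe sequences were not compared with the transcripts of the copies, so which copies each probe reads is uncertain.

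Afp, the main serum protein of the fetus, split the 12 hearts into a high and a low set that cut across genotype. Its signal was 12.62 in the KO heart, 11.36, 10.49, 4.88 and 11.04 in PatKO 1 to 4, 5.42, 4.90, 10.77 and 10.51 in MatKO 1 to 4 and 5.65, 6.23 and 6.02 in WT 1 to 3. The KO heart, 3 of 4 PatKO hearts and 2 of 4 MatKO hearts were high, and PatKO 3, MatKO 1 and 2 and all WT hearts were at or near background. The gap between the lowest of the 6 high hearts and the highest of the others was 4.27.

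Other members followed the same division. For 17 of the 31 members other than Afp, the 6 highest hearts were the same 6 as for Afp, with no overlap, where 0.307% of all 45267 probes showed this. They were Ttr and Rbp4 among the carriers, Apoa1, Apoh and Apom among the apolipoproteins, Fga, Fgg, F2 and Kng1 among the coagulation genes, all 7 protease inhibitors and their partners, and Ahsg. Several of these proteins are secreted together or act as partners, but the division held across roles. After Afp, the widest gaps between the 6 hearts and the rest were those of Ambp (3.50), Apoa1 (2.35), Fga (2.32) and Serpina1b (2.22), and the narrowest was that of F2 (0.01). When all probes of a gene were averaged, 16 members including Afp shared the 6 hearts, against 18 with the brightest probe. In these whole-heart samples, more cells of a type and more RNA per cell cannot be told apart.

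**Figure D1:**
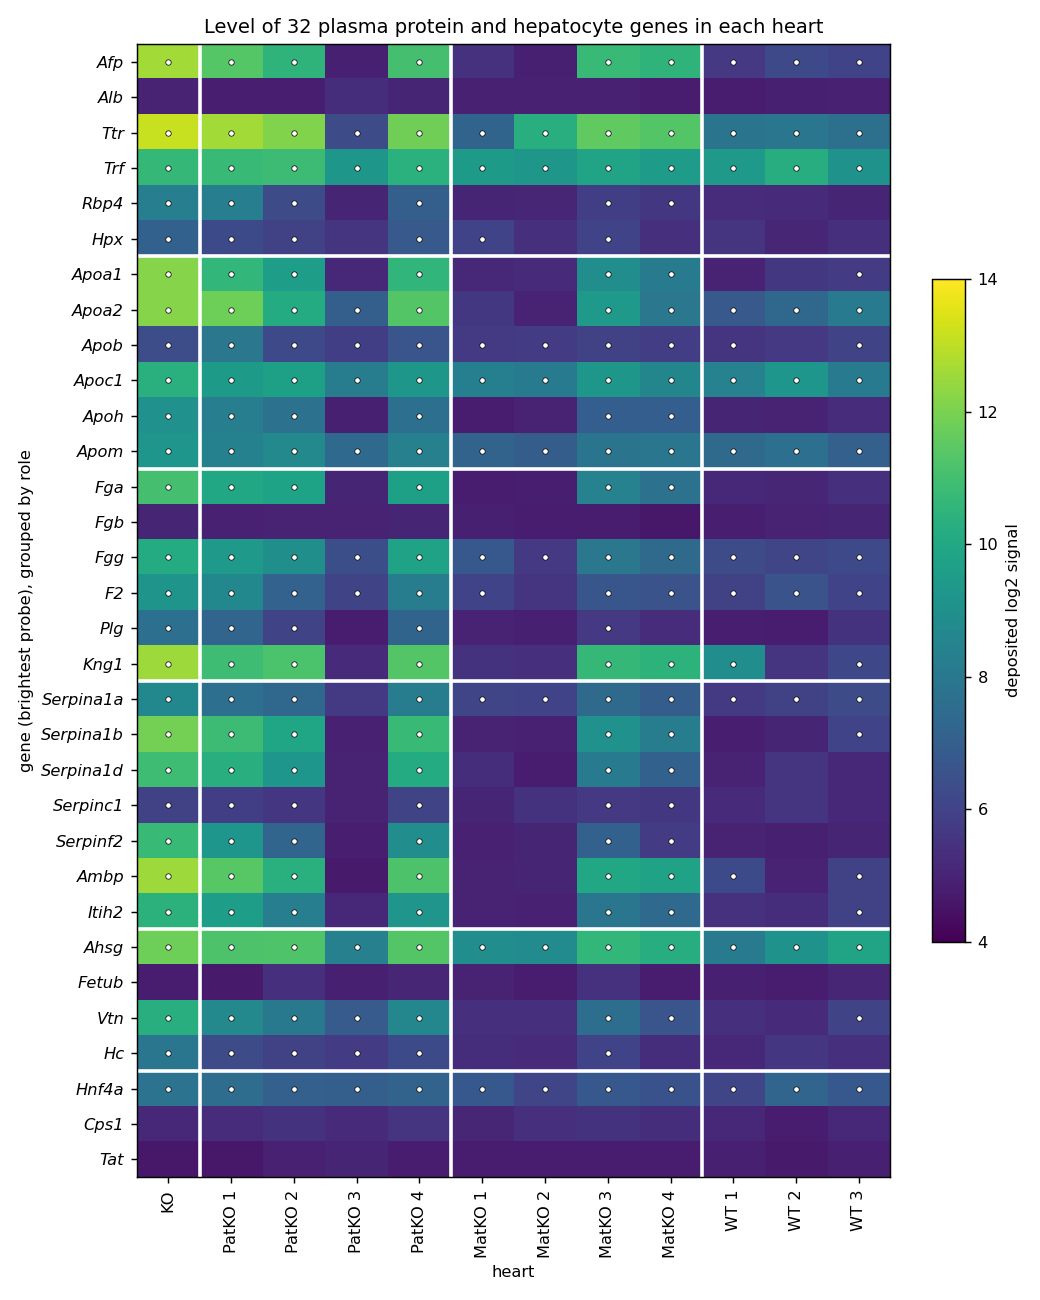
Deposited log2 signal of the brightest probe of 32 genes (rows, grouped by role) in 12 hearts (columns, KO, PatKO, MatKO, WT), with a white dot where the gene was above the background bound of that heart. The bright columns are the KO heart, PatKO 1, 2 and 4 and MatKO 3 and 4, while Alb, Fgb, Fetub, Cps1 and Tat have no dot in any heart.

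Some measures of the whole array and of other cell types were not evenly spread over these hearts. Of the 6 hearts high for Afp, 5 were also positive on the main axis of variation. The exceptions were PatKO 4, which had an Afp signal of 11.04 and an axis value of -18.9, and WT 1, which had an Afp signal of 5.65 and the highest axis value (28.3). The share of all probes above background was 50.3% to 52.0% in the 6 hearts positive on the axis and 47.6% to 49.4% in the others. The part of this axis in the result was not tested.

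The number of members above background followed the same hearts. It was 27 of 32 in the KO heart, 27, 27, 12 and 27 in PatKO 1 to 4, 11, 9, 27 and 24 in MatKO 1 to 4 and 14, 11 and 18 in WT 1 to 3. The median signal over the 32 members was 9.72 in the KO heart, 8.68, 7.90, 5.20 and 8.50 in PatKO 1 to 4, 5.30, 5.19, 7.54 and 6.95 in MatKO 1 to 4 and 5.40, 5.49 and 5.95 in WT 1 to 3. In the low hearts the median member was thus at or near background, and WT 3 had the most members above background among them.

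**Figure D2:**
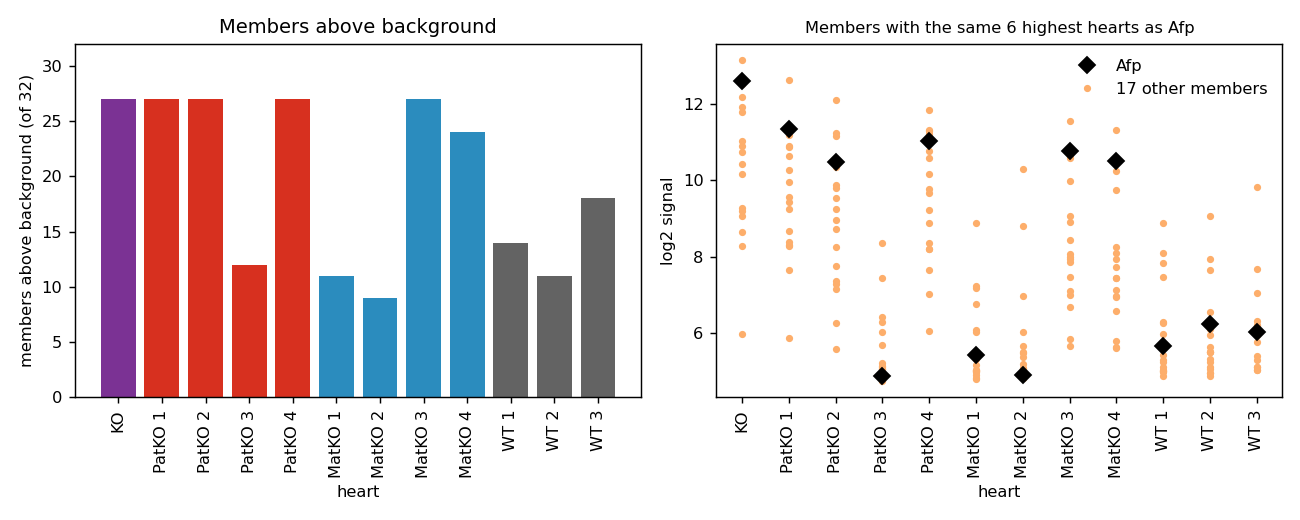
Left, the number of the 32 members above background in each heart. Right, the log2 signal of Afp (black diamonds) and of the 17 other members with the same 6 highest hearts (orange points) in each heart; in PatKO 3, MatKO 1 and 2 and the WT hearts most points lie near the lowest signals, and MatKO 2 has 1 at 10.30 (Ttr).

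Of the plasma carriers, Ttr, which carries thyroid hormone and the retinol-binding protein, stayed readable in every heart. It stood at 13.16 in the KO heart, 12.63, 12.11, 6.27 and 11.84 in PatKO 1 to 4, 7.22, 10.30, 11.57 and 11.32 in MatKO 1 to 4 and 7.84, 7.94 and 7.69 in WT 1 to 3. It divided the hearts as Afp did, and MatKO 2 had 10.30, the highest value among the hearts low for Afp. Rbp4, the retinol carrier that travels bound to Ttr, reached 8.28 in the KO heart and 8.29, 6.27, 5.04 and 7.02 in PatKO 1 to 4, against 5.03, 5.08, 5.84 and 5.61 in MatKO 1 to 4 and 5.28, 5.25 and 5.04 in WT 1 to 3. It was above background only in the 6 hearts high for Afp. Trf, the iron carrier transferrin, varied much less, with 10.65 in the KO heart, 10.75, 10.86, 9.29 and 10.38 in PatKO 1 to 4, 9.46, 9.29, 9.86 and 9.52 in MatKO 1 to 4 and 9.39, 10.21 and 9.14 in WT 1 to 3. Its lowest heart was WT 3 and its highest PatKO 2, and it did not divide the hearts as Afp did. Hpx, which binds free haem, lay between 5.09 and 7.09 and was above background in 6 hearts. Alb encodes the most abundant plasma protein of the adult and neighbours Afp, yet its single probe read 4.78 to 5.32 and was above background in no heart, the KO heart included (4.96). Whether that probe can detect the transcript was not tested.

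Among the apolipoproteins, Apoa1 and Apoa2, the main proteins of high-density lipoprotein, had wide ranges. Apoa1 had 12.19 in the KO heart, 10.63, 9.55, 5.12 and 10.58 in PatKO 1 to 4, 5.16, 5.19, 8.92 and 8.10 in MatKO 1 to 4 and 5.0, 5.63 and 5.75 in WT 1 to 3. Apoa2 had 12.20 in the KO heart, 11.80, 10.13, 7.04 and 11.34 in PatKO 1 to 4, 5.63, 5.0, 9.40 and 7.95 in MatKO 1 to 4 and 6.81, 7.32 and 8.12 in WT 1 to 3. Apoa2 was thus above background in PatKO 3 and in all WT hearts, where Apoa1 was at or near background, and WT 3 (8.12) exceeded MatKO 4 (7.95). The second Apoa2 probe disagreed in part: it read 8.0 in the KO heart and 7.14 in PatKO 4, against 11.35 in PatKO 1. Apoh, which binds phospholipid, was above background only in the 6 hearts high for Afp (6.98 to 9.07), and was 4.81 to 5.28 in the others. Apom, which carries sphingosine 1-phosphate, was above background everywhere, between 6.96 and 9.27, with its second probe spanning 4.91 to 11.66. Apoc1, found on several lipoproteins, ranged from 8.10 to 10.33 and was above background in all hearts. Apob, the structural protein of very-low-density lipoprotein, was dim in most hearts (5.56 to 6.62) and highest in PatKO 1 (7.96), which exceeded the KO heart (6.36) by 1.59.

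The 3 fibrinogen chains, which are assembled into 1 protein, did not read alike. Fga had 11.04 in the KO heart, 9.97, 9.81, 5.05 and 9.67 in PatKO 1 to 4, 4.79, 4.83, 8.45 and 7.73 in MatKO 1 to 4 and 5.11, 5.09 and 5.41 in WT 1 to 3. Fgg had 10.17 in the KO heart, 9.43, 8.96, 6.41 and 9.77 in PatKO 1 to 4, 6.75, 5.66, 7.98 and 7.45 in MatKO 1 to 4 and 6.29, 6.09 and 6.20 in WT 1 to 3. Both chains shared the 6 hearts with Afp, and Fgg stayed above background in the other 6, while Fga did not. The only Fgb probe read 4.65 to 5.05 and was above background in no heart. Levels of different probes cannot be set against each other, so the chains are compared only in which hearts were high.

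The other coagulation genes were F2, Plg and Kng1. F2, which encodes prothrombin, had 9.19 in the KO heart and 8.66, 7.15, 6.04 and 8.20 in PatKO 1 to 4, against 6.03, 5.51, 6.67 and 6.57 in MatKO 1 to 4 and 5.96, 6.55 and 6.01 in WT 1 to 3. It was above background in all hearts but MatKO 2, and WT 2 lay 0.01 below MatKO 4. Kng1, the precursor of bradykinin, had 12.55 in the KO heart, 10.90, 11.16, 5.20 and 11.31 in PatKO 1 to 4, 5.45, 5.37, 10.68 and 10.45 in MatKO 1 to 4 and 8.89, 5.51 and 6.18 in WT 1 to 3. WT 1 was the only heart low for Afp in which Kng1 was far above background, and its second probe read 6.37 there. Plg, the precursor of the fibrin-cleaving enzyme plasmin, reached 7.63 in the KO heart and was above background in 5 hearts by its brightest probe, while its 3 other probes read 4.66 to 5.51 in all hearts.

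By the brightest probe, the protease inhibitors and their partners were the one role in which every member (7 of 7) shared the 6 hearts. Ambp, the precursor of alpha-1-microglobulin and bikunin, had 12.52 in the KO heart, 11.42, 10.35, 4.74 and 11.21 in PatKO 1 to 4, 4.98, 5.04, 9.99 and 9.76 in MatKO 1 to 4 and 6.25, 4.96 and 5.96 in WT 1 to 3. Itih2, a heavy chain that is joined to bikunin, followed it with 10.44 in the KO heart, 9.57, 8.26, 5.11 and 9.22 in PatKO 1 to 4, 5.01, 4.92, 7.94 and 7.44 in MatKO 1 to 4 and 5.42, 5.33 and 5.94 in WT 1 to 3. Both were near background in the same hearts as Afp. Serpinf2, the inhibitor of plasmin, had 10.75 in the KO heart, 9.26, 7.27, 4.85 and 8.89 in PatKO 1 to 4, 4.90, 5.03, 7.11 and 5.78 in MatKO 1 to 4 and 4.99, 4.88 and 5.03 in WT 1 to 3. It had the widest spread among the 6 high hearts, 4.96 between the KO heart and MatKO 4, where Afp spread over 2.12. Serpina1b, 1 of the alpha-1-antitrypsin copies, had 11.92 in the KO heart, 10.87, 9.88, 4.92 and 10.76 in PatKO 1 to 4, 4.99, 4.94, 9.07 and 8.25 in MatKO 1 to 4 and 4.86, 5.05 and 6.03 in WT 1 to 3. Serpina1d ranged from 4.81 to 10.90 and Serpina1a from 5.68 to 8.66 over the same hearts. Serpinc1, which encodes antithrombin, was dim, 5.59 to 6.06 in the 6 hearts and 4.97 to 5.49 in the others. The gap between the 6 hearts and the others was only 0.095. Its second probe read 4.80 to 5.29, was highest in WT 2 and did not divide the hearts as Afp did.

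Ahsg, or fetuin A, a mineral-binding fetal serum protein, was above background in every heart. Its signal was 11.79 in the KO heart, 11.19, 11.26, 8.36 and 11.33 in PatKO 1 to 4, 8.88, 8.81, 10.60 and 10.24 in MatKO 1 to 4 and 8.11, 9.08 and 9.83 in WT 1 to 3. By this probe Ahsg shared the 6 hearts with Afp, with WT 3 the closest of the others. By its second probe it did not: WT 3 (8.63) exceeded MatKO 3 (8.47) and MatKO 4 (7.85). Vtn, the adhesion protein vitronectin, had 10.28 in the KO heart, 8.70, 8.05, 6.87 and 8.63 in PatKO 1 to 4, 5.39, 5.36, 7.61 and 6.64 in MatKO 1 to 4 and 5.39, 5.19 and 6.04 in WT 1 to 3. Vtn was above background in PatKO 3, which was low for Afp, and exceeded MatKO 4 there. Hc, complement component C5, stood at 7.95 in the KO heart, 6.27, 5.92, 5.74 and 6.23 in PatKO 1 to 4, 5.29, 5.19, 6.01 and 5.30 in MatKO 1 to 4 and 5.10, 5.57 and 5.38 in WT 1 to 3. The KO heart was the only one in which Hc exceeded 7. Fetub, a fetuin that inhibits an egg protease, was above background in no heart (4.73 to 5.42).

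None of the 3 genes whose products are not secreted divided the hearts as Afp did, which was also so for secreted members such as Trf, Apoc1, Alb, Fgb and Fetub. Hnf4a, a transcription factor that drives hepatocyte genes, had 7.82 in the KO heart, 7.57, 7.06, 7.01 and 7.20 in PatKO 1 to 4, 6.76, 6.07, 6.76 and 6.50 in MatKO 1 to 4 and 6.10, 7.24 and 6.76 in WT 1 to 3. It was above background in all hearts and did not divide them as Afp did: WT 2 exceeded PatKO 4. Cps1, the first enzyme of the urea cycle, and Tat, a tyrosine-degrading enzyme that in mice is switched on around birth, were above background in no heart (4.80 to 5.51 for Cps1 and 4.64 to 5.05 for Tat).

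**Figure D3:**
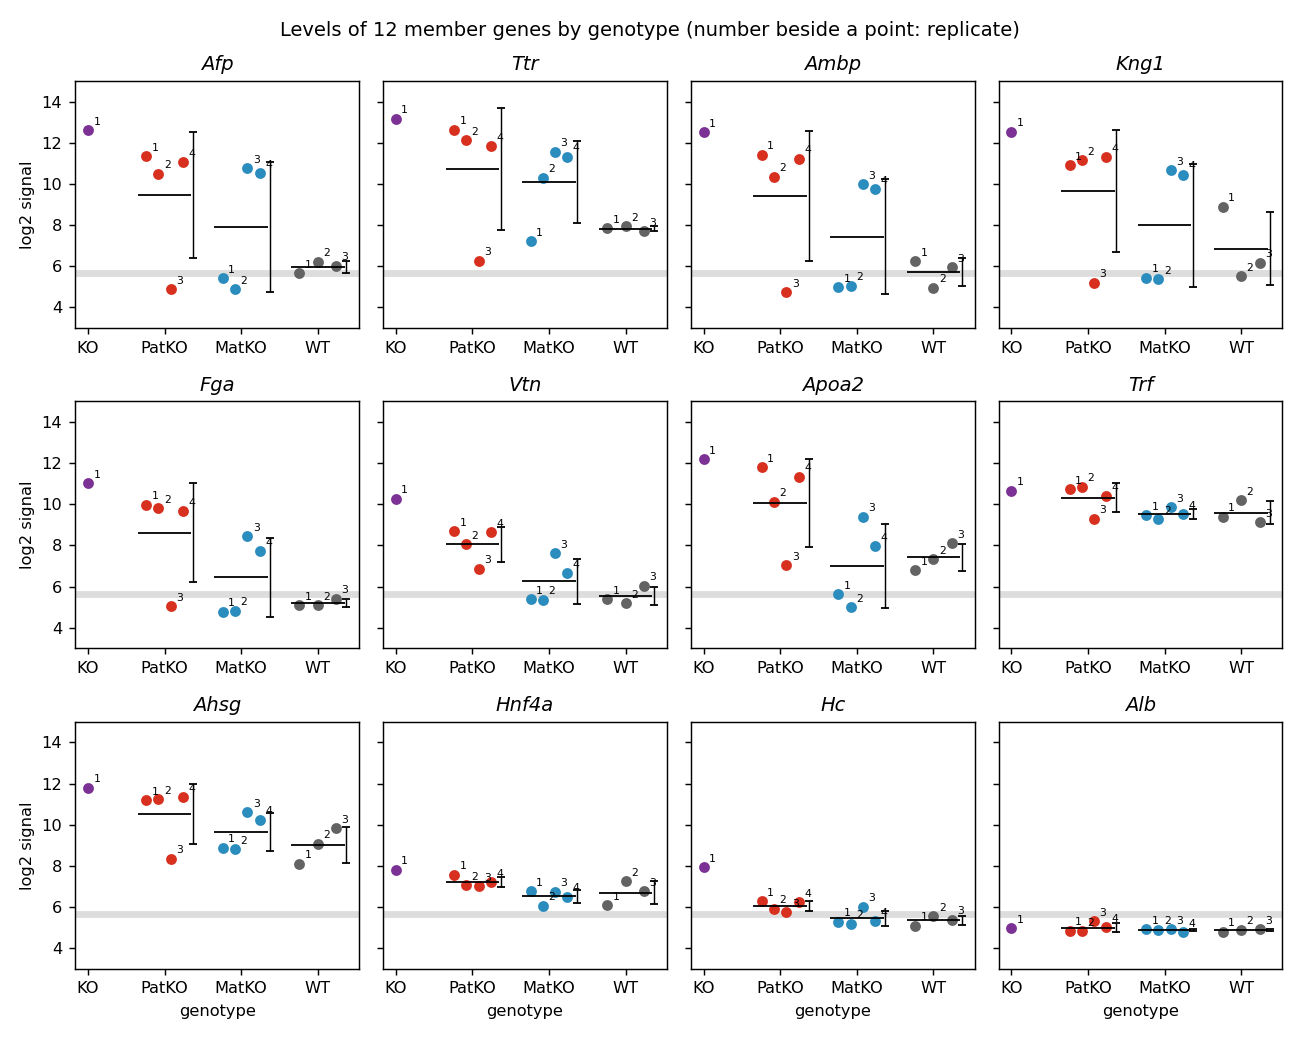
Log2 signal of 12 members in each heart by genotype (points, numbered by replicate), with the mean as a line and the SD as a bar for groups of more than 1 heart, and the range of the background bound in grey. PatKO 3 lies with the lowest hearts for Afp, Ttr, Ambp, Kng1 and Fga but not for Vtn or Hnf4a, and MatKO hearts fall into a pair near background and a pair near 10 for Afp and Kng1.

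Which members remained readable where Afp was low can be counted over the 6 hearts in question (PatKO 3, MatKO 1 and 2 and the WT hearts). Of the 32 members, 7 were above background in all 6 (Ttr, Trf, Apoc1, Apom, Fgg, Ahsg and Hnf4a), which are also the 7 that were above it in all 12 hearts. Apob, F2 and Serpina1a were above it in 5 of the 6, Apoa2 in 4 and Afp itself in 3, all of them WT hearts. Kng1, Ambp and Vtn were above it in 2, and Hpx, Apoa1, Serpina1b, Itih2 and Hc in 1. The remaining 12 members were at background in all 6, and 5 of these (Alb, Fgb, Fetub, Cps1 and Tat) were so in all 12 hearts. With the 99th percentile of the receptor probes as the bound, 4 members were above background in all 12 hearts, and with a fixed bound of 7, 3 were (Trf, Apoc1 and Ahsg). These counts rest on the brightest probe, and other probes disagreed for Apom, Serpina1a, Serpina1b, Serpinf2, Kng1 and Hpx. The second Apom probe read 4.91 in PatKO 3, 4.97 and 5.63 in MatKO 1 and 2 and 6.65, 5.54 and 5.58 in WT 1 to 3. Among these hearts it was above background only in WT 1. The second Serpina1a probe was at background in all of them (4.82 to 5.28). Another Serpinf2 probe was above background in WT 1 (5.77) and WT 3 (5.79). Another Serpina1b probe was above it in WT 2 (5.90) and WT 3 (6.11), the brightest only in WT 3. The second Kng1 probe was above it only in WT 1 (6.37), and the second Hpx probe in none of these hearts (5.01 to 5.65).

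Within the 6 high hearts, the members that shared them were also set against each other, heart by heart in the order of Afp. The KO heart was the highest of all hearts for 24 of the 32 members, and for 16 of the 18 that shared the 6 hearts. How many of all probes were highest in the KO heart was not counted. For 17 of these 18 members the KO heart exceeded PatKO 1, with a median difference of 0.88. PatKO 1 exceeded PatKO 4 for 13 of the 18 (median difference 0.16), PatKO 4 exceeded PatKO 2 for 14 (0.78), PatKO 2 exceeded MatKO 3 for 15 (0.51) and MatKO 3 exceeded MatKO 4 for 17 (0.31). Each of these steps thus had exceptions, as in Kng1, for which PatKO 4 (11.31) and PatKO 2 (11.16) exceeded PatKO 1 (10.90). The lowest of the 6 hearts was MatKO 4 for 15 of the 18, PatKO 2 for 2 and MatKO 3 for 1. With a single KO heart, genotype and embryo cannot be told apart in the step between the KO heart and PatKO 1. The 18 members were picked by being high in these same hearts, and the steps were not counted over all probes, so they only describe the order.

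The comparisons between genotypes asked whether the deletion, and the parent it came from, changed these genes in heart. Members were higher on average in PatKO than in MatKO hearts (32 of 32, median difference 1.01), in PatKO than in WT hearts (31 of 32, median 1.40), in the KO heart than in WT hearts (30 of 32, median 2.90) and in ablated than in control hearts (31 of 32, median 1.56), where the median over all probes was near 0. In MatKO against WT hearts, 26 of 32 were higher, with a median of 0.33. These comparisons share hearts, so their agreement is not independent. The median in PatKO against MatKO hearts depended on single hearts: it rose to 1.72 without PatKO 3 and fell to 0.71 without PatKO 1. It was 0.71 to 1.25 when each heart other than PatKO 3 was left out. Few of the differences passed the test, and hearts of a genotype differed from each other by several log2 units for many members.

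In PatKO against MatKO hearts, 0 members passed an adjusted p of 0.05 by limma with Benjamini-Hochberg adjustment over all probes, where 0.00663% of all probes did, and 13 of 32 were higher at an unadjusted p under 0.05, against 3.3% of all probes. Apoa2 had the largest difference, 10.08 ± 2.14 in PatKO and 7.0 ± 2.05 in MatKO hearts (SD, n = 4 each; difference 3.08, SE 1.12, adjusted p = 0.58 by limma). Vtn was 8.06 ± 0.85 in PatKO and 6.25 ± 1.09 in MatKO hearts, with the smallest p of the members (difference 1.81, SE 0.53, adjusted p = 0.487 by limma). F2 differed by 1.32 (SE 0.49) and Hnf4a by 0.69 (SE 0.24). Afp differed by 1.55 with an SE of 1.64, which is less than the spread between hearts, since each of the 2 genotypes held both high and low hearts. It was 3.07 without PatKO 3 and 0.54 without MatKO 2. The count of 13 depended on single hearts: it was 27 without PatKO 3 and 17 without MatKO 3 (3.02% and 3.29% of all probes in those fits). It was 5, 8 and 3 without PatKO 1, 2 and 4 (3.92%, 2.78% and 3.01% of all probes). It was 5, 4 and 7 without MatKO 1, 2 and 4 (2.53%, 2.77% and 3.08% of all probes).

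In PatKO against WT hearts, 0 members passed the adjusted threshold (0.00663% of all probes) and 18 of 32 were higher at an unadjusted p under 0.05, against 1.75% of all probes. Vtn was 8.06 ± 0.85 in PatKO hearts (SD, n = 4) and 5.54 ± 0.45 in WT hearts (SD, n = 3), a difference of 2.53 (SE 0.58). Its lowest PatKO heart read 6.87 and its highest WT heart 6.04. Fgg was 8.64 ± 1.53 in PatKO and 6.19 ± 0.10 in WT hearts, a difference of 2.45 (SE 0.74), with PatKO 3 (6.41) close to WT 1 (6.29). Cps1, at background in all hearts, also had its lowest PatKO heart (5.21) above its highest WT heart (5.13). How many of all probes were apart in this way was not counted. Hc differed by 0.69 (SE 0.21). Afp was 9.44 ± 3.06 in PatKO and 5.97 ± 0.29 in WT hearts (difference 3.48, SE 1.77), and PatKO 3 lay below all WT hearts. The adjusted p of every member was 1.00 (limma). The count of 18 was 27 without PatKO 3 (1.92% of all probes in that fit). It was 9, 13 and 7 without PatKO 1, 2 and 4 (2.05%, 1.58% and 1.87% of all probes). It was 10, 11 and 15 without WT 1, 2 and 3 (2.41%, 1.5% and 2.25% of all probes).

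In MatKO against WT hearts, 0 members passed the adjusted threshold, which 0% of all probes passed, and 1 of 32 (Cps1, at background in all hearts) was higher at an unadjusted p under 0.05, where 2.41% of all probes were. Fgb, also at background, was lower at that level. Afp was 7.90 ± 3.17 in MatKO hearts (SD, n = 4) and 5.97 ± 0.29 in WT hearts (SD, n = 3), and its difference of 1.93 had an SE of 1.77. That difference was 0.98 and 1.06 without MatKO 3 and 4, and 2.76 and 2.94 without MatKO 1 and 2. Ttr differed by 2.28 (SE 1.44), with 3 of 4 MatKO hearts above all WT hearts, while Trf (-0.05), Apoc1 (-0.03), Apoa2 (-0.42) and Hnf4a (-0.18) were slightly lower in MatKO hearts. The spread of Afp was wide among MatKO hearts, of which 3 and 4 were high and 1 and 2 low, and narrow among WT hearts.

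In the KO heart against WT hearts, Hc was the only member past the adjusted threshold, where 0.0729% of all probes were. It read 7.95 in the KO heart and 5.35 ± 0.23 in WT hearts (SD, n = 3; difference 2.60, SE 0.32, adjusted p = 0.016 by limma). The adjusted p of Hc was 0.0512 without WT 1 and 0.0612 without WT 3, and 0.129 when only the KO and WT hearts were fitted. The fit takes the single KO heart to vary as hearts of the other genotypes do. At an unadjusted p under 0.05, 23 of 32 members were higher, against 3.23% of all probes. The largest differences were those of Ambp (6.80, SE 2.59), Apoa1 (6.73, SE 1.99), Afp (6.65, SE 2.68) and Serpina1b (6.61, SE 2.18), none of which passed the adjusted threshold. With only the KO and WT hearts in the fit, the members called were others: Hc was lost, and Afp (adjusted p = 0.0294), Ttr, Apoa1 (adjusted p = 0.0463), Apoh, Fga, Fgg, Serpina1d and Serpinf2 passed by limma, 8 in all, where 0.0619% of all probes were called higher. That fit takes its spread from the 3 WT hearts alone. The difference of Serpinf2 was 5.78, with all hearts and without PatKO 3. In the fit of all 12 hearts, Vtn had the next smallest p after Hc (difference 4.74, SE 0.87, adjusted p = 0.124 by limma). Trf differed by 1.07 (SE 0.54) and Apob by 0.61 (SE 0.58).

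In ablated against control hearts, 0 members passed the adjusted threshold (0.00884% of all probes did) and 23 of 32 were higher at an unadjusted p under 0.05, against 2.78% of all probes. By role these were all 6 apolipoproteins, 6 of 7 protease inhibitors and partners, 4 of 6 coagulation genes, 3 of 6 carriers, 3 of 4 in the group of fetuins, Vtn and Hc, and Hnf4a. Vtn had the smallest p, with 8.51 ± 1.23 in ablated hearts (SD, n = 5) and 5.95 ± 0.90 in control hearts (SD, n = 7; difference 2.56, SE 0.54, adjusted p = 0.526 by limma). Its control hearts had a lowest value of 5.19, a median of 5.39 and a highest of 7.61, the last of which exceeded PatKO 3. The largest differences were those of Serpina1b (3.50, SE 1.14), Apoa1 (3.37, SE 1.08), Ambp (3.34, SE 1.34) and Apoa2 (3.33, SE 0.91). Afp differed by 3.01 (SE 1.40), Ttr by 2.08 (SE 1.18) and Kng1 by 2.72 (SE 1.35), and these 3 were not past an unadjusted p of 0.05. Without PatKO 3 the difference of Ttr was 3.31. Hnf4a (0.74, SE 0.21), Trf (0.83, SE 0.26) and Apom (1.00, SE 0.27) had smaller differences and smaller errors. Without PatKO 3, 3 members passed the adjusted threshold by limma: Fgg (2.95, adjusted p = 0.0341), Serpina1d (4.31, adjusted p = 0.0382) and Plg (1.91, adjusted p = 0.0404). In that fit 0.0353% of all probes were called higher, against 0.00221% with all hearts.

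**Figure D4:**
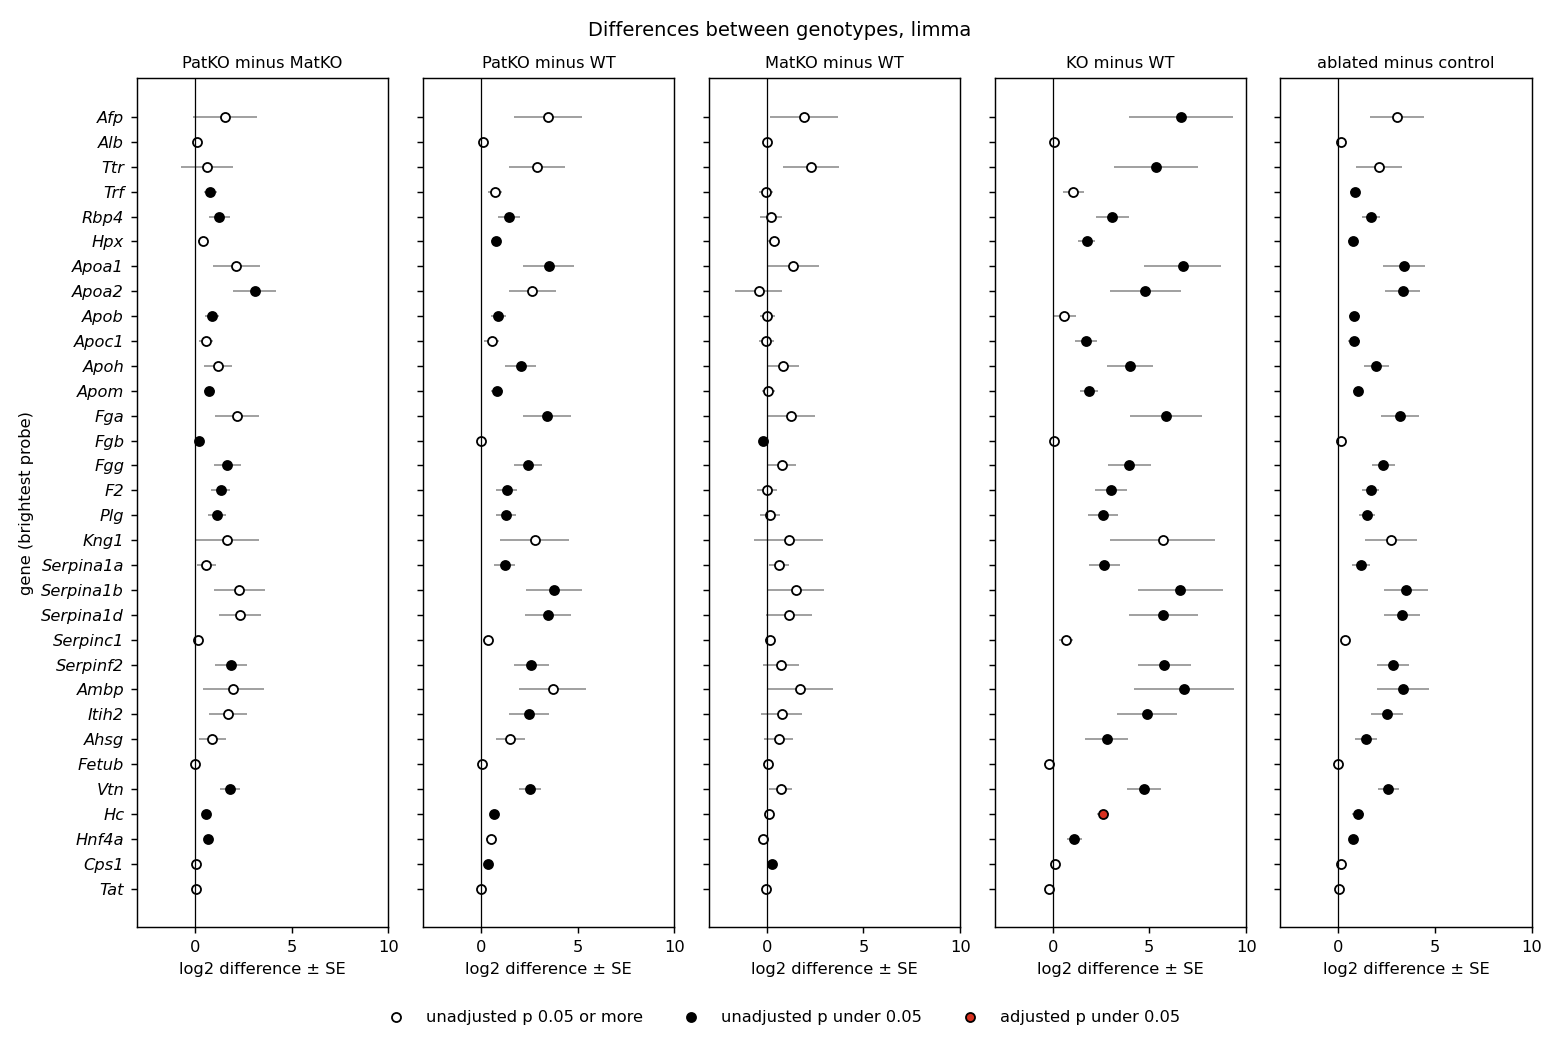
Log2 difference (limma, with SE) of each of the 32 members in 5 comparisons; open points have an unadjusted p of 0.05 or more, black points an unadjusted p under 0.05 and the red point (Hc, KO minus WT, 2.60) an adjusted p under 0.05. Differences lie to the right of 0 for most members in all 5 comparisons, and their errors are widest for Afp, Kng1 and Ambp.

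Genes outside the set were read from lists of liver, yolk sac and blood cell genes. Of all 45267 probes, 0.307% shared the 6 hearts with Afp. In ablated against control hearts 21633 of them were higher, 2.78% were higher at an unadjusted p under 0.05 and 0.00884% were called. Of 54 other liver-secreted proteins, 16 shared the 6 hearts with Afp. In ablated against control hearts 45 were higher (median 0.29, 0 called and 22 higher at an unadjusted p under 0.05). The 4 with the smallest p in ablated against control hearts were Serpina1c (difference 1.98), Serpina1e (2.45), both of them further alpha-1-antitrypsin copies, Hp (0.86), which binds free haemoglobin, and F13b (1.30), a clotting factor subunit. Of 33 hepatocyte enzymes, carriers and transcription factors, only Foxa3, a FOXA family member, shared the 6 hearts, and 13 were above background in no heart. Foxa3 had 8.87 in the KO heart, 7.50, 7.73, 5.42 and 7.42 in PatKO 1 to 4, 5.06, 5.01, 6.85 and 6.16 in MatKO 1 to 4 and 5.95, 5.55 and 5.30 in WT 1 to 3. In ablated against control hearts 22 of the 33 were higher (median 0.06, 0 called, 7 at an unadjusted p under 0.05, and none lower at that level). Of 14 yolk sac endoderm markers none shared the 6 hearts, 10 were lower in ablated than in control hearts, and their mean deviation stayed within -0.14 to 0.17 in all hearts. Of these markers 7 (Amn, Dab2, Mttp, Nostrin, Rhox5, Slc13a4 and Sox17) were above background in all 12 hearts, Lrp2 in 11 and Muc13 in 5. Cubn, the receptor by which yolk sac cells take up protein, was above background in 1 heart, and Cldn2, Pla2g12b, Slc34a2 and Tmprss2 in none. Which cells the signals of this list came from, heart cells or others, was not tested.

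Blood cell markers moved in part with the members. The shares of all probes to set beside them are again 2.78% higher at an unadjusted p under 0.05 and 0.307% sharing the 6 hearts. Of 17 markers of definitive red cells, 16 were higher in ablated than in control hearts (median 0.59, 0 called, 9 at an unadjusted p under 0.05), and Klf1, a red cell transcription factor, shared the 6 hearts with Afp. The mean deviation of the list was 1.01 in the KO heart, 0.58, 0.23, -0.24 and 0.53 in PatKO 1 to 4, -0.33, -0.61, -0.12 and -0.27 in MatKO 1 to 4 and -0.74, -0.02 and -0.02 in WT 1 to 3. MatKO 3 and 4, which were high for Afp, thus lay within the range of the 6 hearts low for Afp (-0.74 to -0.02), above MatKO 1 and 2 and WT 1 and below WT 2 and 3. Of 20 neutrophil markers, 19 were higher in ablated than in control hearts (median 0.62, 0 called, 9 at an unadjusted p under 0.05), and Prtn3, a granule protease, shared the 6 hearts. Their mean deviation was 0.69 in the KO heart, 0.31, 1.14, -0.08 and 0.26 in PatKO 1 to 4, -0.43, -0.65, 0.06 and -0.20 in MatKO 1 to 4 and -0.90, 0.17 and -0.39 in WT 1 to 3. The mean deviation of the 32 members was 2.19 in the KO heart, 1.56, 0.98, -1.23 and 1.42 in PatKO 1 to 4, -1.25, -1.30, 0.58 and 0.12 in MatKO 1 to 4 and -1.10, -1.05 and -0.93 in WT 1 to 3. The part of blood cells in the values of the members was not tested.

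**Figure D5:**
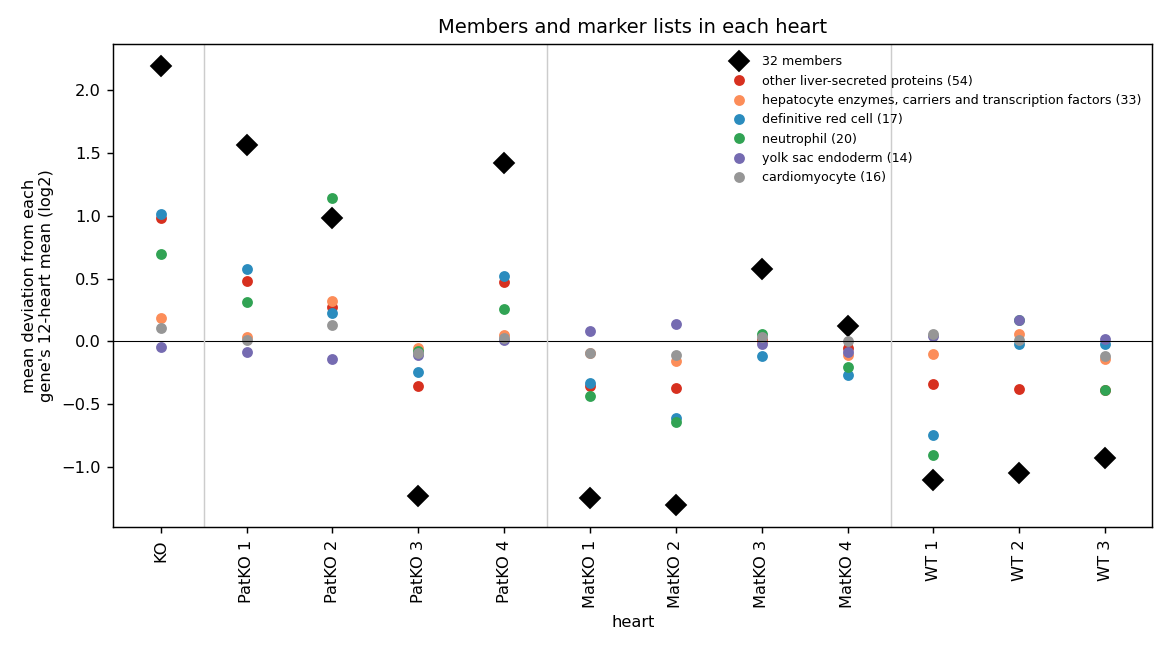
Mean deviation of the 32 members (black diamonds) and of 6 marker lists (coloured points, number of genes in brackets) from each gene's mean over 12 hearts, on the log2 scale. The members span -1.30 to 2.19, the other liver-secreted proteins move in the same hearts over a smaller range, and the cardiomyocyte and yolk sac lists stay near 0.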

How the data were processed

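Hearts of E15.5 embryos (1 KO, 4 PatKO, 4 MatKO, 3 WT) were hybridized to Illumina WG-6 arrays, 1 per heart; the methods name Affymetrix, but probe names are those of Illumina. Deposited by the authors were log2 values for 45267 probes, already background-corrected and quantile-normalized (neqc). GenomeStudio and limma are listed, without versions, in the submitters' processing notes. Array medians were 5.61 to 5.62, and values ran from 4.58 to 15.59. A deposited scanner table was not used (24 columns of per-sample values), since its column names match no label, so no slide could be fitted. Of the probes, 34875 had 1 gene symbol, 18 several and 10374 none listed.

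Differences were tested in R 4.3.3 with limma 3.58.1 (lmFit, then eBayes) on all probes and all 12 hearts, with genotype in 4 levels, or ablated and control in 2. Calls were made at 0.05 after Benjamini-Hochberg adjustment across the 45267 probes. Simulated data with known changes were used to check the fit. Precision is limited by how few arrays there are, and p-values measure the spread between these embryos, whose litters are not given. Nothing states that equal replicate numbers mark paired hearts. Members and lists were chosen with earlier results of these data known. Named genes were the members, up to 4 per list with the smallest p in ablated against control hearts, genes that alone shared the 6 hearts in a list, and up to 10 further genes that shared them with the widest gap; the yolk sac and skeletal muscle genes were chosen after their values were seen. As alternatives, array weights, a block for the replicate number, a trended robust variance, 100 added to linear signals, only probes with a mean of 7 or more, the mean of all probes of a gene, only the hearts compared, each heart left out, and 2 other background bounds were tried.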

Additional observations from a re-analysis of the deposited data

Results flagged for a closer look

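Within groups of 4 to 7 hearts, a value was listed here where its gap to the nearest other heart was a large part of the group's range (Dixon's test at the 95% level). Of 128 groups tested (32 members in PatKO, MatKO, ablated and control hearts), 17 were listed. Chance gives about 1 in 20 for independent groups. These groups are not independent, since members move together and the PatKO hearts are among the ablated hearts. The 17 can therefore not be set against that rate. PatKO 3 accounted for 14 of the 17, as the lowest heart for 8 members. Among both the PatKO and the ablated hearts it was far below the others for Afp (4.88, others from 10.49), Ttr (6.27, others from 11.84), Fga (5.05, others from 9.67), Kng1 (5.20, others from 10.90), Ambp (4.74, others from 10.35) and Ahsg (8.36, others from 11.19). Among PatKO hearts it was also far below the others for Serpina1b (4.92, others from 9.88), and among ablated hearts for Serpina1d (4.98, others from 9.25). The Ddc signal of PatKO 3 was 10.39, within the range of the PatKO hearts. The other 3 were high values: MatKO 3 for Serpinf2 among control hearts (7.11, others up to 5.78) and for Hc among MatKO hearts (6.01, others up to 5.30), and the KO heart for Hc among ablated hearts (7.95, others up to 6.27).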

How the results depend on the processing

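The number of members called in KO against WT hearts was 1, and it became 0 with the replicate number as a block and with only probes of a mean of 7 or more (Hc was too dim for that filter), 8 with only the hearts compared, and 0 to 2 when each heart was left out. In ablated against control hearts it was 0, and 0 to 3 when each heart was left out; PatKO 3 gave the 3. In the other 3 comparisons it stayed 0 under all alternatives. With only probes of a mean of 7 or more (16 members), the median difference of the members was 1.70 in PatKO against MatKO, 2.72 in PatKO against WT, 0.95 in MatKO against WT, 5.11 in KO against WT and 2.64 in ablated against control hearts. That mean is over all hearts, and 13 of the 16 were under 7 in at least 1 heart, so members such as Afp passed through the hearts where they were high, and these medians support nothing. With 100 added to linear signals the medians were 0.67, 0.73, 0.10, 1.80 and 0.92 in the same 5 comparisons, against 1.01, 1.40, 0.33, 2.90 and 1.56 without it. The number of members above background in all 12 hearts was 7, and 4 or 3 under the other bounds. Members higher at an unadjusted p under 0.05 in PatKO against WT hearts were 6 with the replicate block (1.55% of all probes), against 18 without it (1.75%). In MatKO against WT hearts they were 0 with the block (2.32% of all probes), against 1 without it (2.41%). Correlations of same-numbered hearts were -0.35 to 0.54, which cannot decide whether the numbers pair the hearts, since litters are not given. Of 614 values of 33 gene differences under alternatives, 608 kept their direction and side of the threshold, 4 (all Hc in KO against WT hearts) fell short of it, 2 passed it and 0 changed sign. Leaving out the KO heart leaves no KO comparison. Dim members are bounded by background, which understates their differences.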

Other observations

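Among all genes outside the lists, Spink1, a secreted inhibitor of trypsin, had the widest gap between the 6 hearts high for Afp and the rest (2.55). It stood at 10.72 in the KO heart, 10.05, 9.38, 5.01 and 9.46 in PatKO 1 to 4, 5.09, 5.14, 8.66 and 8.18 in MatKO 1 to 4 and 5.63, 5.33 and 5.30 in WT 1 to 3. The next genes by gap were Tspan32 (0.60), Slc27a2 (0.48), a fatty acid transporter and acyl-CoA synthetase, and Mat1a (0.47), the hepatocyte enzyme that makes S-adenosylmethionine. Mat1a read 7.98 in the KO heart and 8.11 in PatKO 2, and 6.77 to 6.99 in MatKO 3 and 4. Gsta3, Prodh2, Ankrd13b, Nfe2, Lmf2 and Rab3il1 followed with gaps of 0.16 to 0.22.

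Blood cell genes with the smallest p in ablated against control hearts included Ermap, a red cell surface protein, with 8.35 in the KO heart and 7.88, 6.54, 5.32 and 7.11 in PatKO 1 to 4, against 5.02 to 5.34 in MatKO and 4.95 to 5.17 in WT hearts. MatKO 3 and 4, both high for Afp, read 5.34 and 5.20 for Ermap. The other red cell genes picked by p also overlapped between ablated and control hearts. MatKO 3 exceeded PatKO 3 for Gfi1b (6.13 against 5.52) and Cldn13 (5.53 against 5.46). For Alas2, WT 3 (14.04) exceeded all ablated hearts (13.50 to 13.97). Of 3 globins of embryonic red cells, Hbb-y read 15.30 in the KO heart and 12.53 to 14.02 in PatKO hearts, against 14.10 to 14.90 in MatKO and 12.69 to 15.08 in WT hearts. PatKO 2 stood apart for some genes of fast skeletal muscle, among them Tnnt3, with 8.13 there and 5.46 to 6.13 in the other 11 hearts, but not for Tnni2 (11.40 there, 10.60 to 11.92 in the others).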
